A study of Mus musculus with 6 samples.

Results

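The 10 genes described here are nuclear genes that keep, copy and transcribe mitochondrial DNA or set the amount of mitochondria: Polrmt, Tfam, Tfb1m, Tfb2m, Polg, Polg2, Twnk, Nrf1, Ppargc1a and Ppargc1b. They were taken by symbol from a deposited table of 56980 genes measured in mouse ovary, and all 10 symbols matched 1 entry each. RNA came from ovaries of ICR mice, an outbred stock. The FNZ group (replicates 2, 3 and 5) received FNZ, a compound the labels name only by these letters and the study title links to T-type calcium channels, by intraperitoneal injection at 30 mg/kg daily for 7 days. The control group (replicates 2, 3 and 4) received the solvent of polyethylene glycol 400 and saline. The labels give neither the age of the animals nor whether the ovaries of a group came from separate mice, so p-values measure the spread between these samples, which may be technical.

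Mitochondrial DNA is a small circular genome whose transcription and replication depend on proteins made from nuclear genes. The mitochondrial RNA polymerase, helped by TFAM and TFB2M, transcribes it, and the polymerase gamma complex with the Twinkle helicase copies it. The transcription factor NRF1 and the PGC-1 coactivators switch on many nuclear genes for mitochondrial proteins, and oocytes carry an unusually large stock of mitochondrial DNA.

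Of the 10 genes, Nrf1 and Ppargc1b, both upstream regulators, had the smallest p, and both had fewer counts in FNZ ovaries. Nrf1 averaged 34.6 ± 3.48 CPM in FNZ ovaries and 46.9 ± 2.52 CPM in control ovaries, and Ppargc1b averaged 1.65 ± 0.539 CPM in FNZ ovaries and 3.04 ± 0.161 CPM in control ovaries (SD, n = 3 each; CPM is the count scaled to library size by TMM). With edgeR's quasi-likelihood test 0 of the 10 genes, and 0% of the 17735 genes tested, passed a Benjamini-Hochberg adjusted p of 0.05. At an unadjusted p under 0.05 edgeR had 2 of the 10 genes, both lower (Nrf1 and Ppargc1b), against 11.2% of all tested genes on that side, and 0 higher, against 12.0%. All 10 genes passed the filter on low counts. DESeq2 called 1 of the 10, Nrf1, as lower, against 5.57% of the genes to which it gave an adjusted p (10.1% in either direction), and 0 higher. Without FNZ replicate 3 edgeR also called only Nrf1 among the 10, against 9.64% of all genes called lower and 17.6% in either direction. With an offset for gene length as well it called 0 of the 10, against 1.70% of all genes higher, 1.86% lower and 3.57% in either direction. These shares lie near the background, so the count over the 10 genes does not set them apart.

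Total counts ran from 19333493 to 22587113 in FNZ libraries and from 22027408 to 23406628 in control libraries. Granulosa genes such as Inha (3212 to 3795 TPM in FNZ and 3236 to 3414 TPM in control ovaries; TPM is the authors' level scaled per length and library) and oocyte genes such as Gdf9 (89.0 to 169 TPM in FNZ and 124 to 175 TPM in control ovaries) were present in every library. On counts Inha did not overlap, at 3427 to 3619 CPM in FNZ and 2779 to 2944 CPM in control ovaries. Of the 9 granulosa markers 8 had positive log2 fold changes (median 0.31, or 0.18 with the gene length offset and 0.02 on TPM), 0 passed edgeR, and DESeq2 called 3 higher (Inha, Hsd17b1 and Fst), against 4.54% of genes. The part of granulosa cells in the results below was not tested. The 9 macrophage markers all had negative log2 fold changes, with summed levels of 128 to 177 TPM in FNZ and 148 to 305 TPM in control ovaries. Summed adipocyte markers varied within both groups (35.5 to 294 TPM in FNZ, 52.9 to 330 TPM in control), and the oviduct gene Ovgp1 stood at 344 TPM in control replicate 4 against 1.63 to 6.60 TPM in the other libraries. Longer genes had lower counts in FNZ replicates 2 and 5: the deviation of a gene from its mean correlated with gene length across genes at rho = -0.46 and -0.31 there, 0.08 in FNZ replicate 3 and 0.26 to 0.32 in the controls. The genes are not independent, and the part of gene length or of cell makeup in the results below was not tested beyond the values given. In whole ovaries fewer cells of a type and less RNA per cell cannot be told apart.

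**Figure D1:**
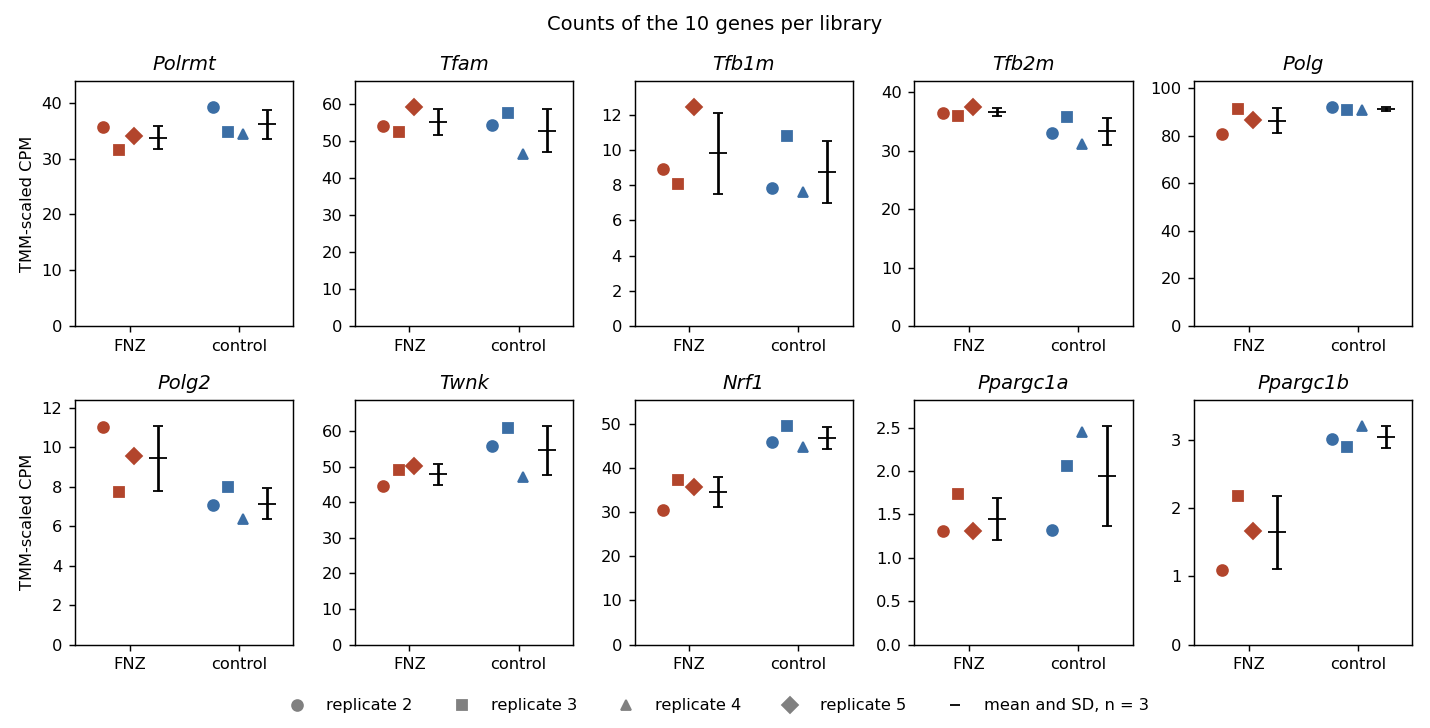
TMM-scaled CPM of each gene in the 3 FNZ libraries (left) and the 3 control libraries (right), with the mean and SD beside them (n = 3). Nrf1 and Ppargc1b were lower in all FNZ libraries than in all controls, Tfb2m was slightly higher, and the other 7 genes overlapped.

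Across the 10 genes, groups did not overlap on the CPM scale in 1 gene on the higher side (Tfb2m) and 2 on the lower side (Nrf1 and Ppargc1b), against 15.8% and 13.8% of all tested genes. The median log2 fold change of the 10 was -0.09, beside 0.01 for all tested genes. With the gene length offset it was -0.000118, beside 0.03, so the shift was no longer seen, and on the log2(TPM + 1) scale it was -0.23, beside -0.175. Levels compared per length spanned a wide range. Tfam, at a mean of 52.8 TPM over all libraries, stood at the 83.9 percentile of tested genes, and Ppargc1a, at 0.508 TPM, at the 6.14 percentile. In TPM the order was Tfam, Polg, Polrmt, Nrf1, Twnk, Tfb2m, Tfb1m, Polg2, Ppargc1b and Ppargc1a. Polrmt exceeded Nrf1 in all 3 FNZ libraries (31.4 to 33.8 against 15.6 to 24.9 TPM). It fell below Nrf1 in all 3 control libraries (26.0 to 30.3 against 31.8 to 34.1 TPM), so this order differed between the groups. Nrf1 exceeded Twnk in all 3 control libraries but only in replicate 3 of FNZ. Twnk exceeded Tfb2m in all 3 control libraries but only in replicate 5 of FNZ. Each of the other neighbours kept its order in 6 of 6 libraries.

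**Figure D2:**
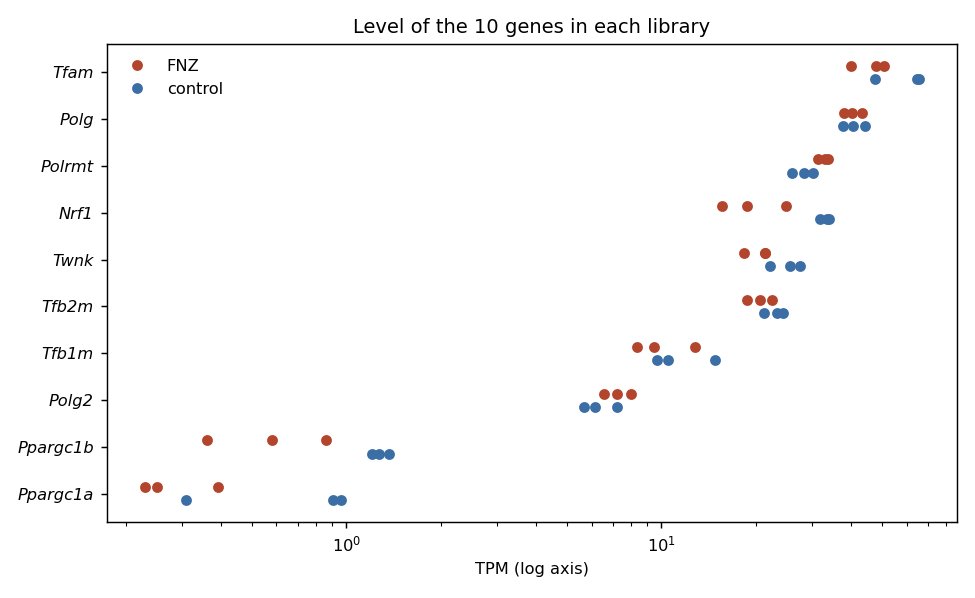
TPM of the 10 genes in each library on a log axis, sorted by their mean, with FNZ libraries above control libraries in each row. Tfam and Polg lead, at 37.8 TPM or more in every library, and both PGC-1 genes stay below 1.4 TPM.

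Polrmt (ENSMUSG00000020329, chromosome 10) encodes the RNA polymerase of mitochondria. Tfam (ENSMUSG00000003923, chromosome 10) encodes the protein that packages mitochondrial DNA and opens its promoters. Tfb2m (ENSMUSG00000026492, chromosome 1) encodes the factor with which the polymerase melts a promoter, and Tfb1m (ENSMUSG00000036983, chromosome 17) its relative that methylates mitochondrial ribosomal RNA. Of the 10 genes, 9 had an entry in the RefSeq promoter table (GRCm38.p6, 300 bases from 250 before to 50 after the start, 11 promoters in all), and Ppargc1b did not. Searched on both strands, the NRF1 core GCGCATGC was found in 2 of the 11 promoters (Polrmt and Tfb2m), beside 2.71% of the 32851 promoters in the table. The ETS site CCGGAAG, bound by the respiratory factor GABP, was found in 5 (Tfam, Polg, Polg2, Polrmt and 1 of the 2 Twnk promoters), beside 8.86%. These 5 hold 16 to 32 CpG each, beside a median of 7 per promoter in the table. Tfb1m, Tfb2m and 1 of the 2 Nrf1 promoters, at 16 to 43 CpG, lack the exact letters CCGGAAG on both strands. Near variants of the motifs were not searched. A comparison with promoters of like CpG was not made. The ERR site TCAAGGTCA and the YY1 site AAGATGGC were found in 0 of the 11, beside 0.423% and 2.75%. The 3 promoters below are shown because each holds the NRF1 core or the ETS site in a gene of the transcription machinery. Each runs from 150 bases before to 30 after the RefSeq start, on the minus strand, with capitals marking a motif. They lie at chr10:79746552-79746731 (Polrmt), chr1:179546247-179546426 (Tfb2m) and chr10:71238015-71238194 (Tfam).
Polrmt: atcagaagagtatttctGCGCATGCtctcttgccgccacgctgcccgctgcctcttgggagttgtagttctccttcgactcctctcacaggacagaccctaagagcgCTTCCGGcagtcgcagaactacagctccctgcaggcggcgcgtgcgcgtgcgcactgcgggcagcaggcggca
Tfb2m: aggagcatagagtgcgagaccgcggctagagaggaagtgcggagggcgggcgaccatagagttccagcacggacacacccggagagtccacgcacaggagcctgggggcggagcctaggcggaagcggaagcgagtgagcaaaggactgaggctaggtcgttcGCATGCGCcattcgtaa
Tfam: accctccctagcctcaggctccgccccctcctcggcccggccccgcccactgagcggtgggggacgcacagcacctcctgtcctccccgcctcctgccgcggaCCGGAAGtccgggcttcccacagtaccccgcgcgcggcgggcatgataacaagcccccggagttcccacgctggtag

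The NRF1 core begins 133 bases before the Polrmt start and at base 14 of the Tfb2m transcript, where it reads as its reverse complement GCATGCGC. The ETS site begins 43 bases before the Polrmt start, as its reverse complement CTTCCGG, and 47 bases before the Tfam start. GENCODE M21 places the outermost start of Tfam further upstream, at base 71238280 of chromosome 10 (GRCm38). A match in these windows is a description of the letters and not of binding.

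Polrmt had 35.6, 31.5 and 33.9 CPM in FNZ replicates 2, 3 and 5, against 39.2, 34.7 and 34.5 CPM in control replicates 2, 3 and 4. The groups overlapped on this scale, since FNZ replicate 2 exceeded control replicates 3 and 4. Between the groups the log2 fold change was -0.10 ± 0.11 (SE; adjusted p = 0.603 by edgeR). In TPM the order of the groups was the other way round, at 33.8, 33.0 and 31.4 TPM in FNZ and 30.3, 28.4 and 26.0 TPM in control ovaries, and the groups did not overlap. On the log2(TPM + 1) scale the difference was 0.21 ± 0.11 (limma adjusted p = 0.276), beside a median of -0.175 over all tested genes on that scale. The direction of Polrmt therefore depended on whether counts or length-scaled values were compared, and neither test passed.

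Tfam had 54.2, 52.5 and 59.2 CPM in FNZ replicates 2, 3 and 5, against 54.5, 57.7 and 46.6 CPM in control replicates 2, 3 and 4. The groups overlapped, with FNZ replicate 5 the highest library and control replicate 4 the lowest. FNZ over control, this was a log2 fold change of 0.06 ± 0.11 (adjusted p = 0.763 by edgeR). In TPM it averaged 46.3 ± 5.76 in FNZ ovaries and 59.3 ± 10.2 in control ovaries (SD, n = 3 each), a difference of -0.34 ± 0.16 on the log2(TPM + 1) scale (limma adjusted p = 0.224). Control replicate 4, at 47.6 TPM, lay inside the FNZ range of 39.8 to 50.9 TPM. Tfam too thus had opposite signs on the 2 scales, and the edgeR value turned to -0.02 without control replicate 4.

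Tfb2m had 36.4, 35.97 and 37.4 CPM in FNZ replicates 2, 3 and 5, against 33.0, 35.7 and 31.2 CPM in control replicates 2, 3 and 4. All FNZ libraries lay above all controls, but FNZ replicate 3 exceeded control replicate 3 by little. The log2 fold change was 0.14 ± 0.10 (edgeR adjusted p = 0.432), and on the log2(TPM + 1) scale it was -0.15 ± 0.13 (limma adjusted p = 0.482). Tfb1m had 8.95, 8.08 and 12.4 CPM in FNZ replicates 2, 3 and 5, against 7.87, 10.8 and 7.59 CPM in control replicates 2, 3 and 4. In each group 1 library stood above the other 2, and the log2 fold change, 0.17 ± 0.24, did not exceed its error (adjusted p = 0.699 by edgeR). Without FNZ replicate 5 it was -0.04, so its sign rested on that library. Per length, Tfb2m stood at 1.61 to 2.37 times Tfb1m in FNZ libraries and 1.64 to 2.41 times in control libraries. Exons of Tfb1m overlap those of Tiam2 on the opposite strand over 142 bases in GENCODE M21, and the strand setting of the counting was not given in the sources used here.

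Polg (ENSMUSG00000039176, chromosome 7) encodes the catalytic subunit of DNA polymerase gamma. Polg2 (ENSMUSG00000020718, chromosome 11) encodes the accessory subunit that makes it processive, and Twnk (ENSMUSG00000025209, chromosome 19) the Twinkle helicase that unwinds mitochondrial DNA ahead of it. Polg had 80.7, 91.4 and 86.6 CPM in FNZ replicates 2, 3 and 5, against 91.9, 90.7 and 90.9 CPM in control replicates 2, 3 and 4. FNZ replicate 3 lay within the narrow range of the controls and the other 2 FNZ libraries below it. Its fold change was -0.08 ± 0.09 on the log2 scale (edgeR adjusted p = 0.606). Polg has the longest deposited gene length of the 10 genes, 7837 bases. With an offset for this gene length the value was 0.21 ± 0.10 (edgeR adjusted p = 0.311). The 2 fits thus differed in sign, and neither passed.

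Polg2 had 11.04, 7.73 and 9.56 CPM in FNZ replicates 2, 3 and 5, against 7.10, 7.98 and 6.38 CPM in control replicates 2, 3 and 4. FNZ replicates 2 and 5 stood above all controls, while FNZ replicate 3 lay among them. At 0.40 ± 0.20 on the log2 scale (edgeR adjusted p = 0.279), its fold change was the highest of the 10 genes, or 0.52 ± 0.20 (edgeR adjusted p = 0.113) without FNZ replicate 3. Per length, the transcript of the catalytic subunit stood at 4.74, 6.12 and 5.98 times that of Polg2 in FNZ replicates 2, 3 and 5, against 6.15, 6.12 and 7.12 times in control replicates 2, 3 and 4. The groups touched in this ratio at replicate 3 of each, where both read 6.12.

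Twnk had 44.5, 49.03 and 50.1 CPM in FNZ replicates 2, 3 and 5, against 55.9, 60.8 and 47.2 CPM in control replicates 2, 3 and 4. Control replicate 4 lay inside the FNZ range, and the other controls above it. Twnk had a fold change of -0.19 ± 0.12 on the log2 scale (edgeR adjusted p = 0.367). In TPM the groups did not overlap, at 18.3 to 21.4 TPM in FNZ and 22.2 to 27.5 TPM in control ovaries. Among the 10 genes, TPM groups were apart on the lower side in 3 (Twnk, Nrf1 and Ppargc1b) and on the higher side in 1 (Polrmt), beside 25.4% and 6.14% of all tested genes. Exons of Twnk share 507 bases with Mrpl43, a mitochondrial ribosomal protein gene on the opposite strand. Those of Polg share 921 bases with Fanci and those of Polg2 share 132 bases with Milr1, also on opposite strands, so the counts of all 3 are uncertain to that extent.

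Nrf1 (ENSMUSG00000058440, chromosome 6) encodes nuclear respiratory factor 1, a DNA-binding activator of many nuclear genes for mitochondrial proteins. It had 30.7, 37.3 and 35.9 CPM in FNZ replicates 2, 3 and 5, against 46.0, 49.7 and 44.9 CPM in control replicates 2, 3 and 4. All FNZ libraries were below all controls, and FNZ replicate 3 was the nearest to them. The log2 fold change was -0.44 ± 0.11, with an edgeR adjusted p of 0.132. DESeq2 gave -0.46 ± 0.15 and called it (DESeq2 adjusted p = 0.0278), and edgeR called it without FNZ replicate 3 (-0.50 ± 0.11, edgeR adjusted p = 0.0274). The authors' deposited table holds a log2 fold change of -0.46 with an adjusted p of 0.0279 for Nrf1, the only one of the 10 below 0.05 there, and its column of significant genes does not mark it. Below 0.05 there were 1484 of the 32461 genes with a count, or 4.57%. The 10.1% given above for DESeq2 was taken over the 14799 genes with an adjusted p, so the 2 shares have unlike bases.

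In TPM Nrf1 was also apart between groups, at 15.6, 24.9 and 18.7 TPM in FNZ and 34.1, 33.4 and 31.8 TPM in control ovaries. With an offset for gene length the log2 fold change was -0.56 ± 0.14 (edgeR adjusted p = 0.190). Its sign was negative under all 20 alternative fits, from -0.77 to -0.35, with adjusted p from 0.0274 to 0.726. Of these fits 2 called it, DESeq2 and edgeR without FNZ replicate 3.

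Ppargc1a (ENSMUSG00000029167, chromosome 5) and Ppargc1b (ENSMUSG00000033871, chromosome 18) encode PGC-1alpha and PGC-1beta, coactivators that bind factors such as NRF1 and the estrogen-related receptors and are abundant in brown fat, heart and muscle. Ppargc1b had 21, 49 and 32 counts in FNZ replicates 2, 3 and 5, against 71, 66 and 72 counts in control replicates 2, 3 and 4. In CPM these are 1.099, 2.18 and 1.67 in FNZ and 3.02, 2.90 and 3.21 in control ovaries. The controls agreed closely, the FNZ libraries varied among themselves, and the groups did not overlap. The log2 fold change was -0.88 ± 0.32 (edgeR adjusted p = 0.174; DESeq2 adjusted p = 0.113), and it was -1.14 ± 0.34 without FNZ replicate 3 (edgeR adjusted p = 0.0631) and -0.65 ± 0.32 without FNZ replicate 2 (edgeR adjusted p = 0.404). It was negative in all 20 alternatives and called in 0 of them.

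Ppargc1a had 25, 39 and 25 counts in FNZ replicates 2, 3 and 5, against 31, 47 and 55 counts in control replicates 2, 3 and 4. Control replicate 2 lay at the level of the FNZ libraries, and the other 2 controls above them. The log2 fold change was -0.42 ± 0.35 (edgeR adjusted p = 0.490). Adipocytes also express both coactivators. The adipocyte gene Adipoq had 17.2, 86.3 and 4.00 TPM in FNZ replicates 2, 3 and 5, against 48.6, 6.28 and 103 TPM in control replicates 2, 3 and 4. FNZ replicate 3 and control replicate 4 were thus high in Adipoq, and control replicate 3 was low. The part of fat in the values of the coactivators was not tested.

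**Figure D3:**
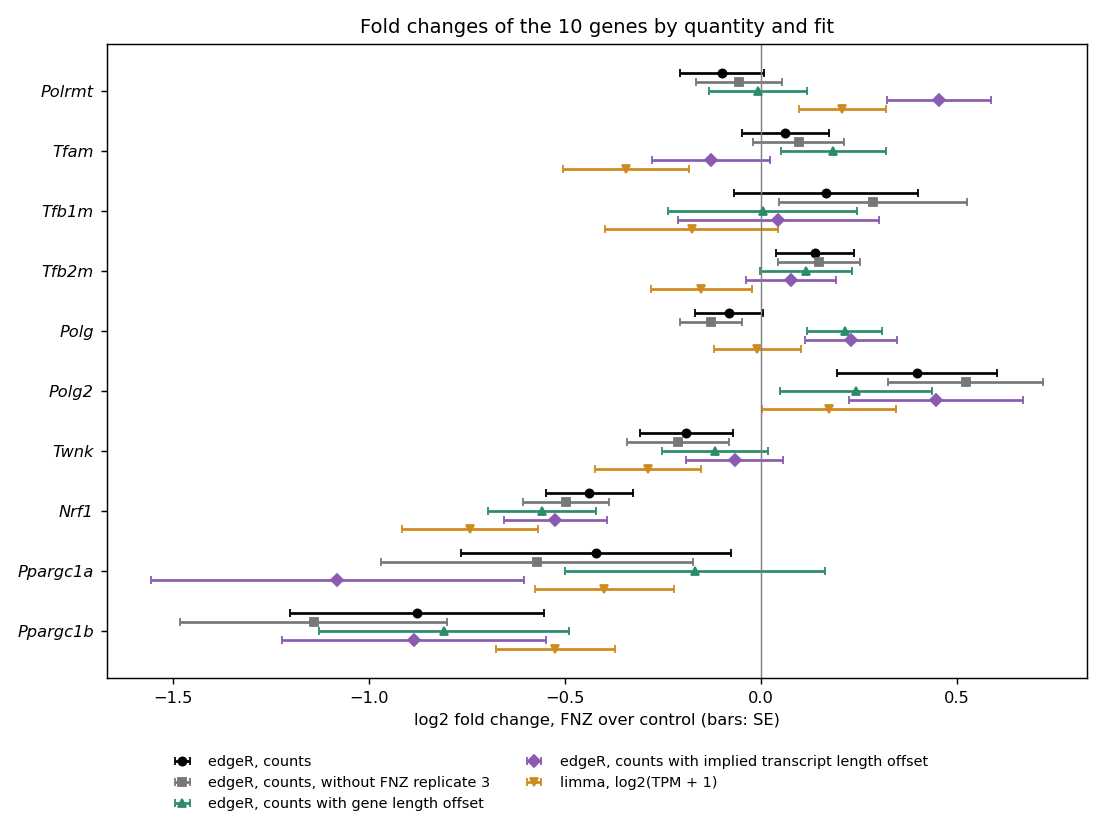
Log2 fold changes of FNZ over control for the 10 genes under 5 fits, with SE bars: edgeR on counts, the same without FNZ replicate 3, with a gene length offset, with an offset for implied transcript length, and limma on log2(TPM + 1). Nrf1, Ppargc1b and Twnk stay below 0 and Polg2 above 0 in all 5, as does Ppargc1a below 0, whereas Polrmt, Tfam, Tfb1m, Tfb2m and Polg change sign between fits.

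Counts and TPM differ by the length by which each gene was scaled. Dividing a library's count by its TPM gives, up to a constant per library, the transcript length that was used, and the constant was set so that the median of 9488 well-measured genes did not differ between libraries. This comparison was added after the values were seen. Over all tested genes the FNZ over control ratio of this implied length ran from 0.836 to 1.15 between the 5th and the 95th percentiles. Polrmt stood at 0.677, lower than in all but 0.829% of tested genes. Relative to the gene's mean its implied length was 0.766, 0.857 and 0.849 in FNZ replicates 2, 3 and 5, against 1.22, 1.15 and 1.28 in control replicates 2, 3 and 4. All FNZ libraries therefore had the shorter implied transcript, and Polrmt was the only one of the 10 genes with groups apart, beside 7.48% of all tested genes on that side. On the longer side there were 0 of the 10, beside 7.92%. Fitted with this length as an offset, Polrmt stood at 0.46 ± 0.13 on the log2 scale (edgeR adjusted p = 0.133).

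Of the other genes, Ppargc1a had a ratio of 1.47 and Polg one of 0.800, both outside that range. The Ppargc1a value came from control replicates 3 and 4, at 0.603 and 0.774 of the gene's mean, since control replicate 2 (1.20) matched the FNZ libraries (1.19 to 1.23). For Polg, FNZ replicates 2 and 5 were at 0.812 and 0.825 and FNZ replicate 3 at 1.07, against 1.02 to 1.21 in control libraries. Tfam was longer on this measure in FNZ ovaries, with a ratio of 1.123 and overlapping groups, and Ppargc1b, Polg2, Tfb2m, Nrf1, Tfb1m and Twnk lay between 0.911 and 1.08. GENCODE M21 lists 13 Polrmt transcripts of 374 to 4288 bases and 18 Polg transcripts of 149 to 7837 bases. The deposited table has no value per transcript, so which of them differ is not analysed here.

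**Figure D4:**
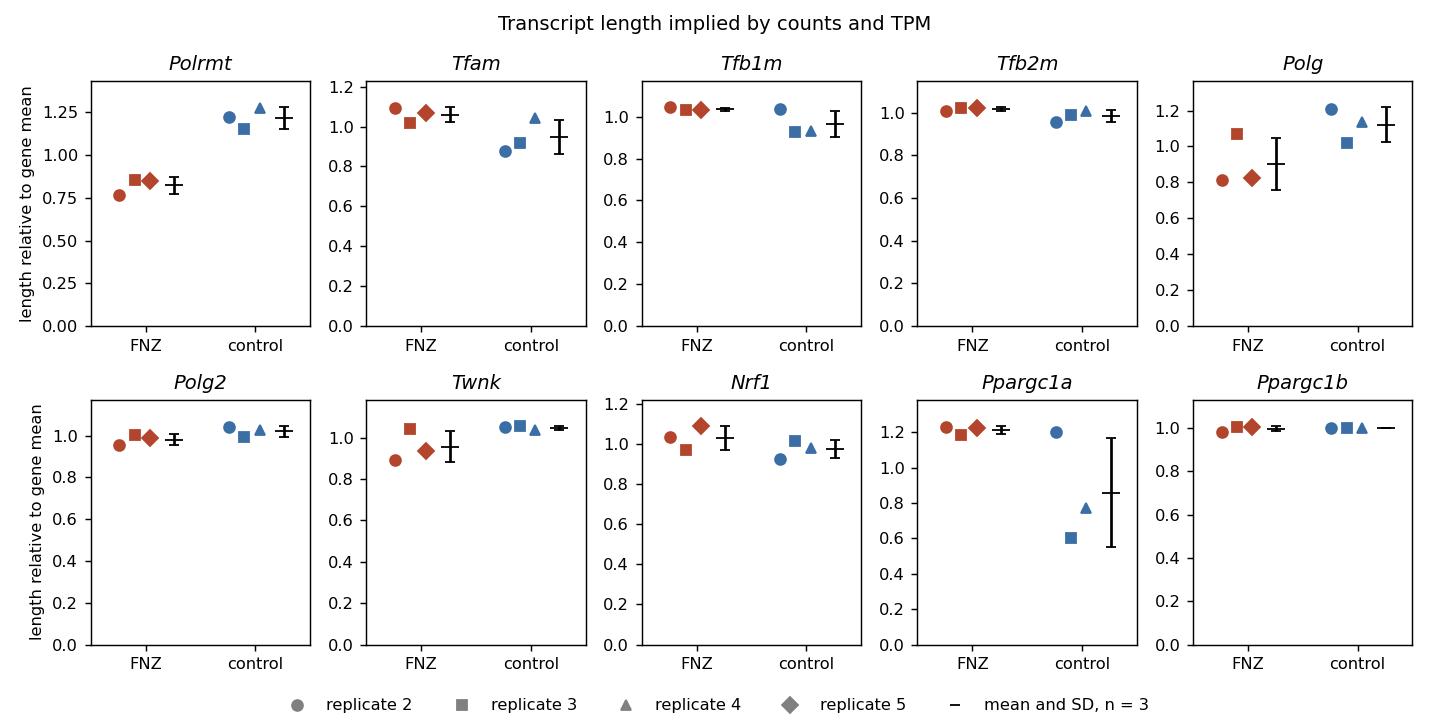
Transcript length implied by the deposited counts and TPM, relative to the mean of each gene, in the 3 FNZ libraries (left) and the 3 control libraries (right), with mean and SD (n = 3). For Polrmt the FNZ libraries lie at 0.766 to 0.857 and the control libraries at 1.15 to 1.28, while the other genes overlap between groups.

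Other genes of the same processes were described from lists of related genes. Among 15 further genes of mitochondrial DNA replication and nucleotide supply, 9 had positive and 6 negative log2 fold changes (median 0.14), and 0 passed edgeR. With the gene length offset the median was 0.000255, and on TPM it was -0.175, the same as over all tested genes. Groups were apart in 5 genes higher and 0 lower in CPM, beside 15.8% and 13.8% of all tested genes. In TPM they were apart in 2 on each side, beside 6.14% higher and 25.4% lower. At an unadjusted p under 0.05 edgeR had 4 higher and 0 lower, against 12.0% and 11.2% of all tested genes. Ssbp1, which encodes the protein that coats single-stranded mitochondrial DNA during replication, had 63.3, 52.0 and 65.5 CPM in FNZ replicates 2, 3 and 5, against 40.8, 45.6 and 37.7 CPM in control replicates 2, 3 and 4. All FNZ libraries exceeded all controls, the log2 fold change was 0.54 ± 0.13 (edgeR adjusted p = 0.131), and DESeq2 called it, its only call in this list (DESeq2 adjusted p = 0.0177), against 4.54% of genes called higher. Without FNZ replicate 3 edgeR called 3 higher and 1 lower, against 7.99% and 9.64% of all genes. Primpol, a primase and polymerase that restarts stalled forks, averaged 20.6 ± 1.87 CPM in FNZ ovaries and 15.5 ± 0.777 CPM in control ovaries (log2 fold change 0.42 ± 0.13, edgeR adjusted p = 0.141). In TPM the Primpol groups overlapped, at 6.55 to 10.5 TPM in FNZ and 7.56 to 11.4 TPM in control ovaries, and the sign turned (-0.13 on the log2(TPM + 1) scale, limma adjusted p = 0.729).

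In mitochondrial transcription and RNA processing, 19 of 25 genes had positive and 6 negative log2 fold changes (median 0.08, or 0.07 with the gene length offset). On TPM the median was -0.07, above the -0.175 of all tested genes. Groups were apart in 7 genes higher and 2 lower in CPM, beside 15.8% and 13.8% of all tested genes. In TPM they were apart in 3 higher and 7 lower, beside 6.14% and 25.4%. The balance turned with the scale, in this list as over all tested genes. edgeR passed 0, with 9 higher and 2 lower at an unadjusted p under 0.05, against 12.0% and 11.2% of all tested genes. Mterf4, which with a methyltransferase takes part in building the mitochondrial ribosome, had 73.3, 45.8 and 71.6 CPM in FNZ replicates 2, 3 and 5, against 40.3, 41.5 and 38.6 CPM in control replicates 2, 3 and 4. FNZ replicate 3 stood just above the controls and the other FNZ libraries well above them (log2 fold change 0.66 ± 0.18, edgeR adjusted p = 0.133). Fastk, whose mitochondrial form is needed for the Nd6 transcript, averaged 74.8 ± 7.78 CPM in FNZ ovaries and 56.5 ± 0.248 CPM in control ovaries (log2 fold change 0.40 ± 0.10, edgeR adjusted p = 0.131). DESeq2 called these 2 genes of the list as higher, against 4.54% of genes, and 0 as lower. Without FNZ replicate 3 edgeR called 6 higher and 0 lower, against 7.99% of all genes on the higher side.

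Of 23 further regulators of biogenesis, 17 had negative and 6 positive log2 fold changes (median -0.14), and 0 passed edgeR. At an unadjusted p under 0.05 edgeR had 7 lower, against 11.2% of all tested genes, and 0 higher, against 12.0%. Pprc1 encodes the third member of the PGC-1 family, which also binds NRF1, and it had 49.5, 59.8 and 55.5 CPM in FNZ replicates 2, 3 and 5, against 77.4, 89.7 and 84.4 CPM in control replicates 2, 3 and 4. The groups were well apart, at -0.61 ± 0.11 on the log2 scale (edgeR adjusted p = 0.131; DESeq2 adjusted p = 0.00113), or -0.42 with the gene length offset. Ppara, a nuclear receptor for fatty acids that PGC-1alpha coactivates, had 1.57, 4.71 and 2.61 CPM in FNZ replicates 2, 3 and 5, against 8.38, 11.7 and 6.61 CPM in control replicates 2, 3 and 4 (log2 fold change -1.58 ± 0.42, edgeR adjusted p = 0.133; DESeq2 adjusted p = 0.00761). DESeq2 called 3 genes of this list lower, against 5.57% of genes: these 2 and Gabpb2, a GABP subunit named here after its value was seen (log2 fold change -0.54 ± 0.15, edgeR adjusted p = 0.134, or -0.25 with the gene length offset). With the gene length offset Ppara was -1.59. On the log2(TPM + 1) scale Pprc1 was -0.73, Ppara -1.24 and Gabpb2 -0.73 (limma adjusted p = 0.136, 0.136 and 0.138). Without FNZ replicate 3 edgeR called 6 lower and 1 higher, against 9.64% and 7.99% of all genes. The median length of these regulators, 4153 bases, was above that of all tested genes, 2705 bases. With the gene length offset their median log2 fold change was -0.02, beside 0.03 for all tested genes. On TPM it was -0.35, beside -0.175. Groups were apart in 1 gene higher and 8 lower in CPM, beside 15.8% and 13.8% of all tested genes. In TPM they were apart in 0 higher and 14 lower, beside 6.14% and 25.4%. Their summed level was 524 to 662 TPM in FNZ and 770 to 775 TPM in control ovaries. The macrophage markers had a median log2 fold change of -0.49, and 4 of the 9 were called lower by DESeq2, against 5.57% of genes; their part in the values of these regulators was not tested.

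Transcripts made from mitochondrial DNA were described in the same way. Of the 13 mitochondrially encoded protein genes 12 had positive log2 fold changes (median 0.54) and mt-Nd4l a negative one (-0.16). edgeR passed 0, with 8 higher and 0 lower at an unadjusted p under 0.05, against 12.0% and 11.2% of all tested genes. DESeq2 called 6 higher and 0 lower, against 4.54% and 5.57%. Their summed level was 65560 to 74770 TPM in FNZ ovaries and 55400 to 67090 TPM in control ovaries, so the groups overlapped. mt-Atp8, a gene of 204 bases, was the largest single part, at 31863 to 32482 TPM in FNZ and 25945 to 34786 TPM in control. Its own groups overlapped, and in CPM it stood at 248 to 495 in FNZ and 280 to 347 in control ovaries. A sum without mt-Atp8 was not taken, so the overlap of the sum does not describe the other genes of the list. Groups were apart in 6 genes higher and 0 lower in CPM, beside 15.8% and 13.8% of all tested genes. In TPM they were apart in 5 higher and 0 lower, beside 6.14% and 25.4%. mt-Co2 and mt-Nd3 had the smallest p, with 104.5 ± 29.6 against 46.4 ± 5.22 CPM and 71.2 ± 34.6 against 24.4 ± 5.86 CPM in FNZ against control ovaries (log2 fold changes 1.17 ± 0.21 and 1.54 ± 0.37, edgeR adjusted p = 0.131 each). Near-identical nuclear copies make single values of these genes uncertain. These genes are short, at a median of 784 bases, and the median of the list was 0.32 with the gene length offset and 0.27 on TPM.

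**Figure D5:**
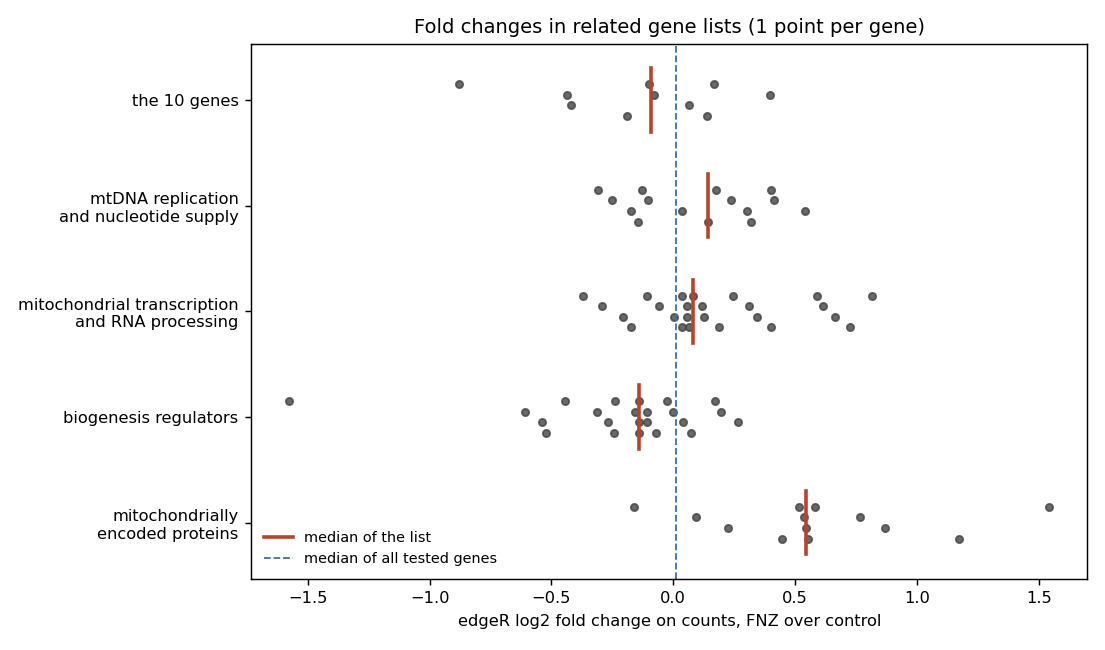
edgeR log2 fold changes (FNZ over control, counts) of every tested gene in the 5 lists, 1 point per gene, with the median of each list as a bar and that of all tested genes (0.01) as a dashed line. The biogenesis regulators have a median of -0.14 and the mitochondrially encoded proteins one of 0.54.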

How the data were processed

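Poly(A) RNA of 6 ovary libraries was sequenced as paired-end reads, per the labels' protocols. The submitters' processing notes name bcl2fastq 2.20, DESeq2 1.38.3 and the build GRCm39. Alignment, counting, annotation release and strand setting were not given in the sources used here. The authors deposited expected counts and TPM per library, and for each gene a fold ratio, its log2 value and a p-value, raw and adjusted. The ratio and the group mean TPM were not used. TPM was scaled per length by the authors.

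Expected counts were rounded to whole numbers. The main test was that of edgeR 4.0.16 in R 4.3.3 (TMM, filterByExpr, robust quasi-likelihood F test, two-sided, Benjamini-Hochberg over all 17735 tested genes, calls at 0.05). SEs were taken from the fold change and its F statistic. Alternatives used DESeq2 1.42.0, limma 3.58.1 (voom, or log2 TPM after adding 1 or 0.1), other scalings and filters, a loess trend (span 0.3) on gene length as an offset, replicate blocks and each library left out. Gene length in that trend was the single deposited value of each gene, whereas the implied transcript length varied between libraries. For Nrf1 the deposited length was 1658 bases, while GENCODE M21 lists transcripts of 486 to 4042 bases. The offset for implied transcript length, from values of at least 0.05 TPM, was added after seeing the data. The fits were tested on simulated data. Members, lists and rules were chosen with earlier results of these data known. The text names all 10 members, from each related list the 2 with the lowest p in edgeR, and abundant markers. Markers of granulosa, theca and luteal cells, oocytes, macrophages, adipocytes, oviduct, skeletal muscle and erythrocytes were measured. Theca and luteal markers summed to 3140 to 5068 TPM in FNZ and 3090 to 3573 TPM in control ovaries, skeletal muscle markers to 11.4 to 15.1 and 8.64 to 9.12 TPM, and erythrocyte markers to 645 to 3787 and 1989 to 3735 TPM. Among theca and luteal markers TPM groups were apart in 2 higher (Hsd3b1 and Insl3) and 1 lower (Star), beside 6.14% and 25.4% of all tested genes. Cyp17a1, Cyp11a1 and Lhcgr were highest in FNZ replicate 3 and lowest in FNZ replicates 2 and 5. Cyp17a1 had 692 TPM in FNZ replicate 3, against 94.5 and 99.5 TPM there and 409 to 648 TPM in control ovaries.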

Additional observations from a re-analysis of the deposited data

How the results depend on the processing

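Over all genes edgeR called 0, and the count was 1497 with DESeq2, 2 with limma voom, 1 and 4 with limma on TPM (pseudocounts 1 and 0.1), 183 with no filter, 2 with the gene length offset, 24 with the replicate block, 3 with both, and 653 with the gene length offset and FNZ replicate 3 left out; leaving out each library gave 0 to 3230, the highest without FNZ replicate 3. Replicates 2 and 3 are the only numbers the groups share, and the libraries sharing them did not deviate together (r = -0.08 and -0.14), so the block pairs samples by number alone. Of the 10 genes 1 was called with DESeq2, and 0 to 1 with a library left out. Of the mitochondrial DNA replication list 1 was called with DESeq2 and 0 to 4 with a library left out. In the transcription and RNA processing list the counts were 2 with DESeq2, 0 to 6 with a library left out, and 2 with the gene length offset without FNZ replicate 3. In the 23 biogenesis regulators they were 3 with DESeq2, 1 with no filter, 0 to 7 with a library left out and 2 with the gene length offset without FNZ replicate 3, and in the 13 mitochondrially encoded proteins 6, 1, 0 to 9 and 4. Over all genes the share called was 10.1% with DESeq2, and 183 of 32252 genes were called with no filter. It was 17.6% without FNZ replicate 3, where each list had its most calls with a library left out. With the gene length offset as well it was 3.57%.

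The sign turned for 6 of the 10 genes. On TPM (pseudocounts 1 and 0.1) Tfam was -0.34 and -0.35, Tfb1m -0.18 and -0.19, Tfb2m -0.15 and -0.16, and Polrmt 0.21 and 0.21. With the replicate block Tfam was -0.073 and Tfb1m -0.12, and with the block and the gene length offset Tfb1m was -0.30, Polg 0.13 and Ppargc1a 0.05. With the gene length offset Polg was 0.21, and with FNZ replicate 3 also left out Polg was 0.26 and Polrmt 0.067. With the implied length offset Tfam was -0.13, Polg 0.23 and Polrmt 0.46. With a library left out Tfam ran from -0.024 to 0.13 and Tfb1m from -0.041 to 0.34. Nrf1, Ppargc1b, Twnk and Polg2 kept their sign in all 20 alternatives each. The cause was not tested. The values of Ppargc1a and Ppargc1b rest on 21 to 72 counts per library.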
